A study of Mus musculus with 2 samples.

Results

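Cholesterol and fatty acid synthesis genes are described here in primary mouse osteoblasts that received medium conditioned by PC-3 cells or by MDA-PCa2b cells. The set of 38 genes was chosen by function, with earlier results of these data known, and covers the mevalonate steps (7 genes), the squalene and sterol steps (10), control of the SREBP transcription factors (5), fatty acid synthesis and desaturation (11), and sterol transport and efflux (5). Of these, 37 had at least 1 of the array's probe sets mapped to them alone and 36 were measured, which means a signal higher than the median probe set of its array on both arrays (57.7 with PC-3 medium and 56.7 with MDA-PCa2b medium, called the floor below). Of all 18193 genes with a probe set 10649 were measured.

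Osteoblasts were grown in medium with 10% fetal calf serum and differentiated for 10 days with ascorbic acid at 50 µg/ml and β-glycerophosphate at 10 mM. They were then deprived of serum overnight and held for 6 hours in PC-3 medium (1 array) or MDA-PCa2b medium (1 array). The labels name no strain, age, sex or source animal, and do not say how many cultures an array holds. PC-3 and MDA-PCa2b are human prostate cancer cell lines that were established from bone metastases, and each is a single line, so a difference between the media cannot be told apart from a difference between these cultures. The title of the PC-3 array also carries the other line's prefix, so the groups follow the source description. Osteoblasts in unconditioned medium were not analysed here. "Higher" and "lower" say how the PC-3 array stood against the MDA-PCa2b array. With 1 array per group there was no replicate check and no test between the media: every difference below is between these arrays.

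Cholesterol is built from acetyl-CoA through mevalonate, farnesyl diphosphate, squalene and lanosterol, and fatty acids are built from the same acetyl-CoA. Genes of both routes are switched on by the SREBP factors, which are held in the endoplasmic reticulum by the escort protein Scap and the Insig proteins when sterols are plentiful, and are released and cut when sterols are scarce. On many of these promoters SREBP binds beside the general factors NF-Y, which recognises CCAAT, and Sp1, which recognises GC boxes. Oxysterols retain SREBP and also activate the LXR receptors, which switch on efflux genes.

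The trimmed mean signal was 300.0 on each array, and the median log2 ratio of all measured genes was -0.04. The labelled cell type was borne out by defining markers: Col1a1, the main bone collagen gene, had signals of 20052 with PC-3 medium and 20109 with MDA-PCa2b medium, and Ibsp, the bone sialoprotein gene, 15794 with PC-3 medium and 17106 with MDA-PCa2b medium. The bone transcription factor gene Sp7 had signals of 919 with PC-3 medium and 1469 with MDA-PCa2b medium. All 8 measured osteoblast markers had a log2 ratio below 0, against 55.9% of all measured genes, with a median of -0.11. By brightest probe sets, those of Col1a1 (-0.00), Col1a2 (-0.02) and Sparc (-0.02) were too close to 0 to give a direction. Other probe sets reached -0.59 for Col1a2 and 0.33 for Sparc. Only 1 marker was at least 2-fold lower (12.5%, against 1.68% of all measured genes). That marker was Dmp1, a matrix protein gene of late osteoblasts and osteocytes, with signals of 426 with PC-3 medium and 1765 with MDA-PCa2b medium (4.14-fold lower), a larger difference than that of any of the 38 genes. Markers of other cells were also present. All 12 macrophage and osteoclast markers on the array were measured, with a summed signal of 26221 with PC-3 medium and 25622 with MDA-PCa2b medium. Most of this sum is Lyz2, at 9416 with PC-3 medium and 9194 with MDA-PCa2b medium, and Ctsk, at 7336 with PC-3 medium and 7420.3 with MDA-PCa2b medium. Of the 12 markers 9 were above 0 and 3 below 0, whereas 55.9% of all measured genes were below 0. The median log2 ratio of these 12 markers was 0.13. The highest were Fcgr1, at 153 with PC-3 medium and 86.7 with MDA-PCa2b medium (0.82), and Cd68, at 851 with PC-3 medium and 566 with MDA-PCa2b medium (0.59). Of the 9 adipocyte markers on the array, cells that bear on lipid genes most directly, 4 were measured and 2 more passed the floor on 1 array. The 9 had a summed signal of 3052 with PC-3 medium and 3292 with MDA-PCa2b medium, most of it from the lipoprotein lipase gene Lpl, at 2107 with PC-3 medium and 2652 with MDA-PCa2b medium. The defining genes Lep, Cidec and Retn were below the floor on both arrays, while 2 measured markers were higher: the adiponectin gene Adipoq had signals of 139 with PC-3 medium and 101 with MDA-PCa2b medium, and the fatty acid carrier gene Fabp4 522 with PC-3 medium and 265 with MDA-PCa2b medium. The other 2 measured markers, Lpl (-0.33) and Cebpa (-0.15), had log2 ratios below 0. Pparg passed the floor with MDA-PCa2b medium alone, and Plin4 with PC-3 medium alone. All 8 endothelial markers were below the floor. In a bulk culture fewer cells of a type and less RNA per cell cannot be told apart, and the part of these other cells in the differences below was not tested.

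The sequences that lie before the starts of these genes are shown first, as the known control elements of the sterol route lie there. RefSeq windows (GRCm38.p6) of the 250 bases before the start were found for 29 of the 38 genes. They were searched on both strands for the sterol regulatory element TCACNCCAC, its shorter form CACNCCAC (which every longer match also holds), the CCAAT box and the GC box GGGCGG. A gene with several annotated starts was counted if any window held the motif. The longer sterol element was found in 1 of 29 genes (3.45%), Hmgcs1, against 1.22% of all 27025 genes with a window. The shorter form was found in 3 of 29 (10.3%), Acat2, Hmgcs1 and Insig1, against 6.05% of all genes. CCAAT was found in 22 of 29 (75.9%), against 37.5% of all genes and 40.7% of the 8676 genes above the floor that had a window. The GC box was found in 23 of 29 (79.3%), against 35.4% of all genes and 66.3% of those above the floor. Among the mevalonate, squalene and sterol genes alone, CCAAT was found in 13 of the 14 with a window (92.9%), Acat2 being the exception. The GC box was also found in 13 of these 14 (92.9%). Fdps, Fdft1 and Sqle had no window. CCAAT was found in 4 of 8 fatty acid genes (50.0%), 4 of 5 SREBP control genes (80.0%) and 1 of 2 transport genes (50.0%). These matches are descriptions of letters and not binding sites.

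The windows below belong to genes on which the results turn: Hmgcs1 holds the longer element, Mvk has the most CCAAT boxes (5), Idi1, Hsd17b7 and Dhcr7 had the lowest ratios of their route, Insig1 holds the shorter element, and Pmvk went the opposite way. Each is printed 5′ to 3′ on the strand of the gene and ends at the base before the start, with sterol elements and CCAAT boxes (read on either strand, so also as ATTGG) in capitals.
Hmgcs1 (chr13:119690101-119690350, plus strand): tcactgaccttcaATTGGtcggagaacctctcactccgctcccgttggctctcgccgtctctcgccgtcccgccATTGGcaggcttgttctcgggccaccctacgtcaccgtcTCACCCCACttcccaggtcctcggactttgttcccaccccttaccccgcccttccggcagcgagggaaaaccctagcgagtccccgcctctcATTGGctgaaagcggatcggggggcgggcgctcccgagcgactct
Mvk (chr5:114444019-114444268, plus strand): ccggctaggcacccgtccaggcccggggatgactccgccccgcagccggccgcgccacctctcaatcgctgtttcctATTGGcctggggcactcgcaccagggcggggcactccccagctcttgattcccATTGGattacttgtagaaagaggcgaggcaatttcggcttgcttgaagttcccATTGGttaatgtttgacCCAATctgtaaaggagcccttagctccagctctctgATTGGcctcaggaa
Pmvk (chr3:89454291-89454540, plus strand): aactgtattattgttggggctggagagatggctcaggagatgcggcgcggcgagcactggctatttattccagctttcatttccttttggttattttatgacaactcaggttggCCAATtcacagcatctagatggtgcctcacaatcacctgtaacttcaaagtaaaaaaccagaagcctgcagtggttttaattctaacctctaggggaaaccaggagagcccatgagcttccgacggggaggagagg
Idi1 (chr13:8885356-8885605, plus strand): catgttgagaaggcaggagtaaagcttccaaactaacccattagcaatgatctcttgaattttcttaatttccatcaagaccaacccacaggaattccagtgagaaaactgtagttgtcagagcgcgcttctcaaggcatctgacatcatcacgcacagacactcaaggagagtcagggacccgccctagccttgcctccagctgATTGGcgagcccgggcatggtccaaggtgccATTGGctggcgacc
Hsd17b7 (chr1:169969206-169969455, minus strand): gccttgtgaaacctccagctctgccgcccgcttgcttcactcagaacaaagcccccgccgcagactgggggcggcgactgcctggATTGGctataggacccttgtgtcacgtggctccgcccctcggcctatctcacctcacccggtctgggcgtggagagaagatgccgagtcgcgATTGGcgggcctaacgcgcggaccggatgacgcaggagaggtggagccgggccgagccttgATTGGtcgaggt
Dhcr7 (chr7:143829964-143830213, plus strand): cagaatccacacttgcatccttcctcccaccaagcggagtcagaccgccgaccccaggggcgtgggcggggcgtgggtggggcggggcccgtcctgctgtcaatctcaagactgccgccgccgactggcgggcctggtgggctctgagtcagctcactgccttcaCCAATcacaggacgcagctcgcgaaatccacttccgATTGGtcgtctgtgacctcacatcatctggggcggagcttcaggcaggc
Insig1 (chr5:28071162-28071411, plus strand): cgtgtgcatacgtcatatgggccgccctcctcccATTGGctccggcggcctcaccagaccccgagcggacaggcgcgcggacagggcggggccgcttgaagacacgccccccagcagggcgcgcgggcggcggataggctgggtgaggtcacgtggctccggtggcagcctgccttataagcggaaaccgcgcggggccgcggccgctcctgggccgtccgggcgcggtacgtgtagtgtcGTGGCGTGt
In Hmgcs1 the core CACCCCAC begins 136 bases before the start, between CCAAT boxes on either side. In Insig1 the element CACGCCAC lies on the opposite strand, and the match begins 9 bases before the start. Dhcr7 has 3 annotated starts and only the window shown, the farthest downstream, holds CCAAT boxes (2). Pmvk has 2 annotated starts, of which the one shown holds 1 CCAAT box, and neither window holds a sterol element or a GC box.

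Genes of the cholesterol route were mostly lower with PC-3 medium, by modest factors. Of the 16 measured genes of the mevalonate, squalene and sterol steps, 15 had a log2 ratio (PC-3 medium over MDA-PCa2b medium) below 0, which is 93.8% against 55.9% of all measured genes. Their median log2 ratio was -0.50, against -0.04 over all measured genes. Across the whole set 29 of 36 genes lay below 0 (80.6%), with a median of -0.36. Few differences were large: 2 of 36 (5.56%) were at least 2-fold lower, against a background of 1.68% of all measured genes, and 1 of 36 (2.78%) was at least 2-fold higher, against 1.90%. At 1.5-fold, 9 of 36 were lower, against 6.23%, and 1 was higher, against 5.18%.

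**Figure D1:**
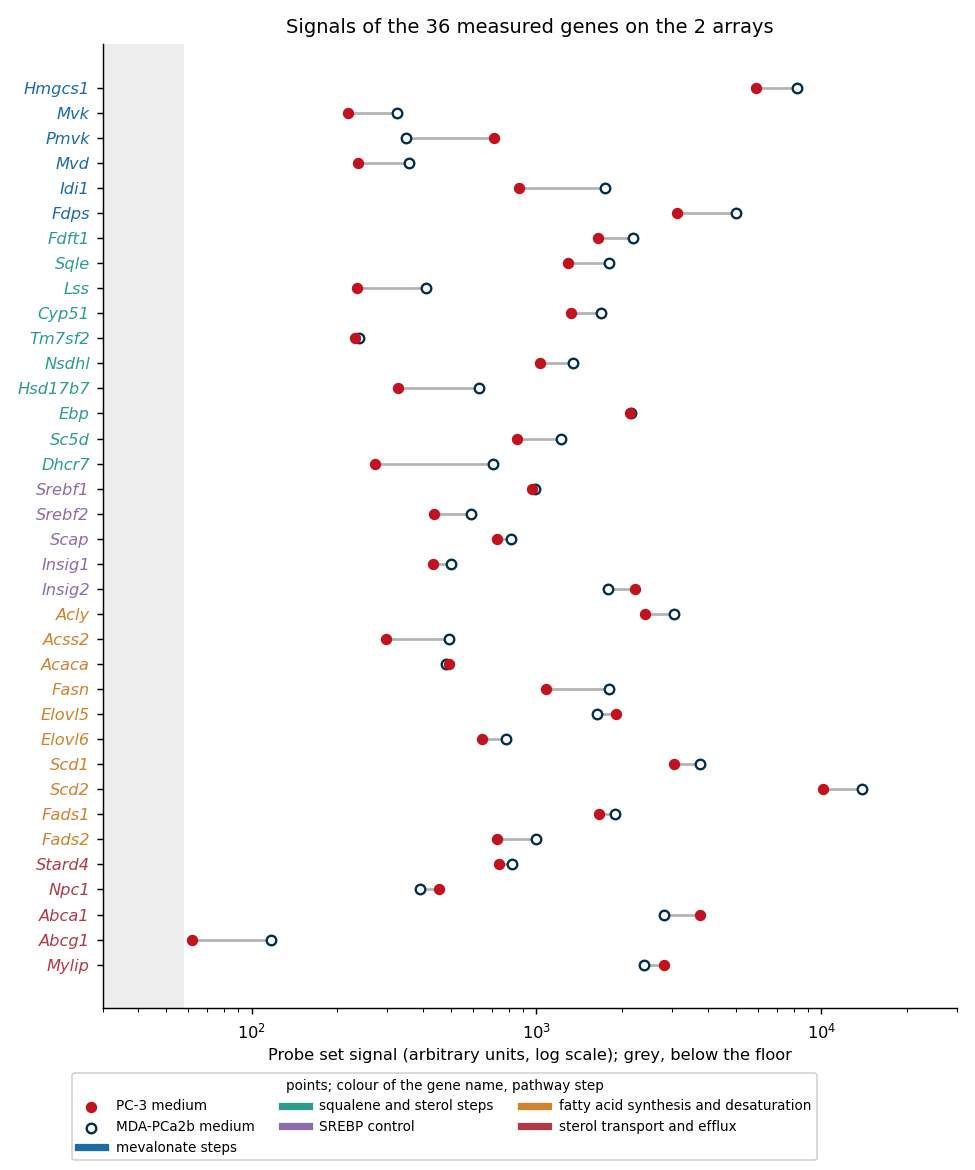
Probe set signals (horizontal log axis, arbitrary units) of the 36 measured genes, in pathway order from top to bottom, with PC-3 medium (filled points) and MDA-PCa2b medium (open points); each point is 1 array and the grey band lies below the floor. The filled point lies left of the open one for 29 genes, and Pmvk is the widest exception, at 711 with PC-3 medium and 349 with MDA-PCa2b medium.

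The mevalonate steps had a median log2 ratio of -0.59 over 6 measured genes, 5 of them below 0. Acat2, whose product makes acetoacetyl-CoA in the cytosol, had no probe set mapped to it alone. Hmgcs1, which encodes the synthase that adds another acetyl unit to form HMG-CoA, had signals of 5885 with PC-3 medium and 8184 with MDA-PCa2b medium (1.39-fold lower). Its 4 measured probe sets lay close together, with log2 ratios from -0.54 to -0.42. Mvk, the mevalonate kinase gene, had signals of 218 with PC-3 medium and 325 with MDA-PCa2b medium (log2 ratio -0.58, and -0.71 by its second probe set). Pmvk, the gene of the kinase that acts next, stood alone at 711 with PC-3 medium and 349 with MDA-PCa2b medium, 2.04-fold higher. Of the 10649 measured genes 98.2% lay at or below this ratio, whereas the genes on either side of Pmvk in the pathway were lower. Pmvk has a single probe set on the array, so the opposite direction could not be compared with a second measurement.

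The remaining mevalonate steps were lower. Mvd, which encodes the decarboxylase that yields isopentenyl diphosphate, had signals of 237 with PC-3 medium and 358 with MDA-PCa2b medium (1.51-fold lower), and its probe sets gave -0.76 and -0.60 on the log2 scale. Idi1, the gene of the isomerase that converts this product to dimethylallyl diphosphate, had signals of 865 with PC-3 medium and 1735 with MDA-PCa2b medium (2.01-fold lower). By its other probe set the log2 ratio was -0.76, so Idi1 sits at the 2-fold line by 1 probe set and short of it by the other. Fdps, the farnesyl diphosphate synthase gene at the branch to sterols and to prenyl groups, had signals of 3104 with PC-3 medium and 5004 with MDA-PCa2b medium (1.61-fold lower).

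All 10 genes of the squalene and sterol steps had a log2 ratio below 0, with a median of -0.44. Dhcr7, the gene of the reductase that completes cholesterol, had the lowest ratio of the whole set, with signals of 271 with PC-3 medium and 701 with MDA-PCa2b medium (2.58-fold lower, log2 ratio -1.37). This value lay within the lowest 0.601% of all measured genes, and it rests on 1 probe set. Hsd17b7, which encodes a ketosteroid reductase of sterol demethylation, had signals of 327 with PC-3 medium and 627 with MDA-PCa2b medium (1.92-fold lower) by its brightest probe set. That probe set is of the type (_x_at) that can match other transcripts, and the other measured ones gave smaller log2 ratios of -0.42 and -0.35. Lss, the lanosterol synthase gene, was 1.76-fold lower (234 with PC-3 medium and 411 with MDA-PCa2b medium) by a probe set shared between transcripts (_s_at), and its other measured probe set gave a log2 ratio of -0.36. For both genes the direction was the same in every measured probe set, while the size was not.

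The other sterol genes differed less. Fdft1, the squalene synthase gene, had signals of 1643 with PC-3 medium and 2183 with MDA-PCa2b medium (log2 ratio -0.41), and Sqle, the squalene epoxidase gene, 1292 with PC-3 medium and 1793 with MDA-PCa2b medium (-0.47). Cyp51, the gene of the lanosterol demethylase, had signals of 1323 with PC-3 medium and 1680.1 with MDA-PCa2b medium (-0.35), with -0.56 and -0.10 by its other probe sets. Nsdhl, a dehydrogenase gene of the same demethylation as Hsd17b7, had signals of 1031 with PC-3 medium and 1342 with MDA-PCa2b medium (-0.38). Sc5d, the sterol desaturase gene one step before Dhcr7, had 855 with PC-3 medium and 1223 with MDA-PCa2b medium (-0.52). The exceptions were Ebp, the sterol isomerase gene, at 2127 with PC-3 medium and 2148 with MDA-PCa2b medium (-0.01), and Tm7sf2, a sterol reductase gene, at 231 with PC-3 medium and 238 with MDA-PCa2b medium (-0.05). Size did not follow the order of the steps: the smallest and the largest differences of this route, those of Ebp and Dhcr7, stand near each other at its end.

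The agreement between probe sets gives the only view of measurement scatter. Over 4924 genes of the array with several measured probe sets, log2 ratios differed within a gene by an SD of 0.24. This describes the 2 arrays and says nothing of how cultures vary. Of 70 measured probe sets of the 36 genes, 55 had a ratio below 0, against 53.6% of all measured probe sets with a gene. For the mevalonate, squalene and sterol steps it was 29 of 30, the exception being Pmvk. Of 22 genes of the set with several measured probe sets, 16 were below 0 by all of them, 4 were above 0 by all, and 2, Srebf2 and Elovl6, lay on both sides. The matching shares over all genes with several measured probe sets were not computed. These counts therefore describe agreement between probe sets and not how unusual the set is. Differences smaller than this scatter, such as those of Ebp, Tm7sf2, Srebf1 and Acaca, cannot be given a direction. Across the 36 genes, the log2 of the mean signal and the log2 ratio were only weakly related (Pearson r 0.18, Spearman rho 0.25, a description across genes of the same arrays).

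**Figure D2:**
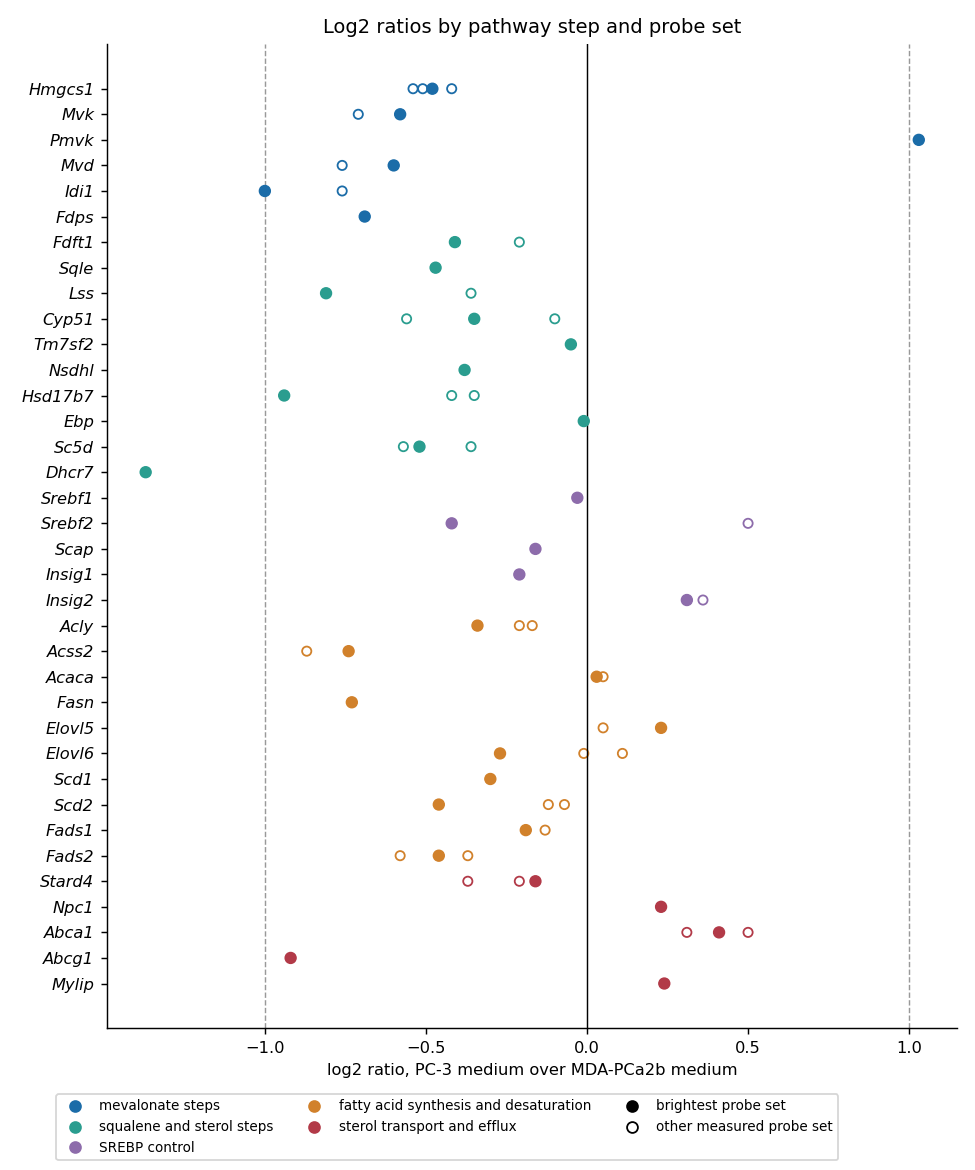
Log2 ratio (PC-3 medium over MDA-PCa2b medium, horizontal axis) of every measured probe set of the 36 genes, coloured by pathway step; filled points are the brightest probe set of a gene, open points its others, and dashed lines mark 2-fold. Of the mevalonate, squalene and sterol genes only Pmvk lies right of 0, and the probe sets of Srebf2 fall at -0.42 and 0.50.

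Genes that control the route differed little. Srebf2, which encodes the SREBP that mainly drives cholesterol genes, had signals of 438 with PC-3 medium and 587 with MDA-PCa2b medium by its brightest probe set (log2 ratio -0.42), but 576 with PC-3 medium and 408 with MDA-PCa2b medium by its other (0.50), so its direction depends on the probe set. Srebf1, the gene of the SREBP that mainly drives fatty acid genes, had 965 with PC-3 medium and 988 with MDA-PCa2b medium (-0.03). Scap, the escort gene, had 727 with PC-3 medium and 813 with MDA-PCa2b medium (-0.16). Insig1, itself known as an SREBP target, had 435 with PC-3 medium and 502 with MDA-PCa2b medium (-0.21), within the scatter between probe sets, and Insig2 had 2208 with PC-3 medium and 1779 with MDA-PCa2b medium (0.31). The 3 probe sets of Insig2 gave 0.31 to 0.36, while Insig1 had only 1. No gene of this group reached 1.5-fold, and the median of the 5 was -0.16, or -0.03 when the probe sets of a gene were averaged.

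Fatty acid synthesis and desaturation genes were lower to a smaller extent, with a median log2 ratio of -0.32. Of 10 measured genes 8 were below 0 (80.0%, against 55.9% of all measured genes). Acss2, which encodes the synthetase that makes acetyl-CoA from acetate, had signals of 296 with PC-3 medium and 493 with MDA-PCa2b medium (1.67-fold lower, -0.87 by its second probe set on the log2 scale). Fasn, the fatty acid synthase gene, had 1082 with PC-3 medium and 1796 with MDA-PCa2b medium (1.66-fold lower). These were the only genes of this group past 1.5-fold. Acly, which encodes the enzyme that makes cytosolic acetyl-CoA from citrate, had 2394 with PC-3 medium and 3032 with MDA-PCa2b medium (-0.34). Acaca, the gene of the acetyl-CoA carboxylase that commits acetyl units to fatty acids, had 492 with PC-3 medium and 481 with MDA-PCa2b medium (0.03). Its relative Acacb was below the floor on both arrays, at 14.1 with PC-3 medium and 7.57 with MDA-PCa2b medium, so no ratio is given.

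Among genes that lengthen and desaturate fatty acids, Scd2, a stearoyl-CoA desaturase gene, had 10111 with PC-3 medium and 13871 with MDA-PCa2b medium (-0.46), but only -0.12 and -0.07 by its other probe sets. Scd1, its close relative, had 3028 with PC-3 medium and 3734 with MDA-PCa2b medium (-0.30 by both probe sets). Fads2 encodes the first desaturase of polyunsaturated fatty acids and had signals of 724 with PC-3 medium and 996 with MDA-PCa2b medium (-0.46). Fads1, the gene of the next desaturase, had 1653 with PC-3 medium and 1891 with MDA-PCa2b medium (-0.19). The elongase genes have no settled direction: Elovl6 had 646 with PC-3 medium and 779 with MDA-PCa2b medium (-0.27, but 0.11 and -0.01 by other probe sets), and Elovl5 had 1908 with PC-3 medium and 1628 with MDA-PCa2b medium (0.23, and 0.05 by its other probe set). None of these reached 1.5-fold in either direction.

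Sterol transport and efflux genes had a median of 0.23. Of the 5 genes 3 lay above 0 and 2 below (40.0%, against 55.9% of all measured genes). Abca1, which encodes the pump that loads cholesterol onto lipoproteins and is an LXR target, had signals of 3733 with PC-3 medium and 2809 with MDA-PCa2b medium (1.33-fold higher), and its 3 probe sets gave log2 ratios from 0.31 to 0.50. Mylip, an LXR target that encodes a ligase for lipoprotein receptors, had 2797 with PC-3 medium and 2376 with MDA-PCa2b medium (0.24), and Npc1, the gene of the late endosomal cholesterol transporter, 456 with PC-3 medium and 390.0 with MDA-PCa2b medium (0.23). Mylip and Npc1 have 1 probe set each, and their ratios were about the size of the scatter between probe sets (0.24). Stard4, a sterol carrier gene known as an SREBP target, had 736 with PC-3 medium and 823 with MDA-PCa2b medium (-0.16). Abcg1, another LXR-driven efflux gene, went the opposite way from Abca1, at 61.8 with PC-3 medium and 117 with MDA-PCa2b medium (1.90-fold lower). Its signal with PC-3 medium stood just above the floor of 57.7, and its second probe set was below the floor on both arrays, so the size of its ratio is uncertain.

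**Figure D3:**
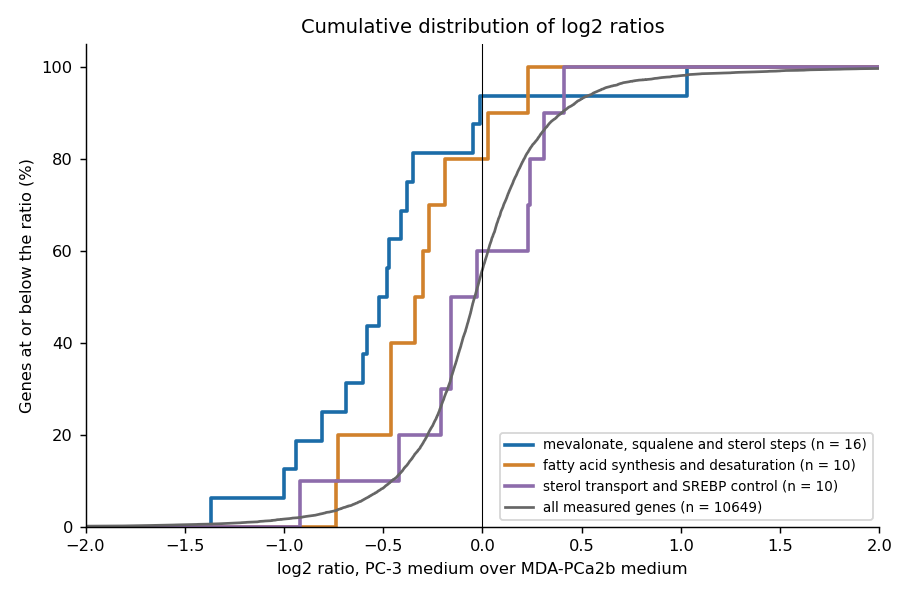
Cumulative percentage of genes (vertical axis) at or below each log2 ratio (horizontal axis, PC-3 medium over MDA-PCa2b medium) for the mevalonate, squalene and sterol genes (n = 16), the fatty acid genes (n = 10), transport and SREBP control genes (n = 10) and all 10649 measured genes. At a log2 ratio of 0 the sterol genes stand at 93.8% and all measured genes at 55.9%.

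Genes next to the route were read from lists of related functions. Of 10 measured genes among 13 other names of sterol synthesis and uptake, 6 were below 0 (60.0%), close to the 55.9% of all measured genes. Their median was -0.10, and 1 was at least 2-fold lower (10.0%, against 1.68% of all measured genes). That gene was Vldlr, a lipoprotein receptor gene, with signals of 1232 with PC-3 medium and 2686 with MDA-PCa2b medium (2.18-fold lower). Msmo1, the gene of the sterol methyl oxidase that acts between Cyp51 and Nsdhl, was chosen after its values were seen: it had 1422 with PC-3 medium and 2469.8 with MDA-PCa2b medium (log2 ratio -0.80), the same direction as its neighbours. The branches that use farnesyl diphosphate for other products had a median of 0.10 over 14 genes. Of these 6 were below 0 (42.9%, against 55.9% of all measured genes). By brightest probe sets the largest ratios there were those of Fntb, a farnesyltransferase subunit gene (-0.56), and Rce1, a protease gene of prenylated proteins (0.31). Dhdds of the same list, chosen after its values were seen, gave -0.07 by its brightest probe set but up to 0.92 by another. Genes that process SREBP or degrade sterol-regulated enzymes lay within a narrow range, from -0.23 (Sec24a, a coat gene of vesicles that carry SREBP) to 0.24 (Ufd1, a gene of the degradation machinery), with a median of -0.13 over 11 genes.

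Among oxysterol genes, Ch25h and Cyp7b1 held large differences. Ch25h, which encodes the hydroxylase that makes the oxysterol 25-hydroxycholesterol, known to retain SREBP in the endoplasmic reticulum, had signals of 803 with PC-3 medium and 183 with MDA-PCa2b medium, 4.38-fold higher. Cyp7b1, which encodes the hydroxylase that breaks down this oxysterol, had 901 with PC-3 medium and 224 with MDA-PCa2b medium, 4.01-fold higher, with a log2 ratio of 1.86 by the second probe set. Genes for making and for breaking down the same oxysterol were thus both higher. No sterol was measured. Of 9 measured LXR and oxysterol genes these 2 were at least 2-fold higher (22.2%, against 1.90% of all measured genes). In the same list 7 were above 0 and 2 below (22.2%, against 55.9%), with a median of 0.17. Hsd3b7 had a log2 ratio of 0.33, and Lpcat3 one of -0.32, the lowest of the list. Cyp46a1 (0.01) stood near the floor, at 60.1 with PC-3 medium and 59.5 with MDA-PCa2b medium. The LXR gene Nr1h3 itself was near the floor, at 72.3 with PC-3 medium and 60.5 with MDA-PCa2b medium.

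Genes of glycerolipids and lipid droplets had a median above 0, while the median of fatty acid oxidation genes and PPAR targets was near 0. The first list mixes genes that store fatty acids with genes that release them from stores. The releasing ones had log2 ratios of 0.40 (Pnpla2), 0.25 (Lipe), 0.68 (Mgll) and 0.25 (Abhd5). The list median is therefore not a measure of storage alone. In glycerolipid synthesis and lipid droplets 2 of 13 measured genes were below 0 (15.4%, against 55.9% of all measured genes). The median was 0.25, or 0.09 with the floor at the 75th percentile. Of the 13, 1 was at least 2-fold higher (7.69%, against 1.90% of all measured genes). Dgat1, which encodes the enzyme of the last step to triglyceride, had signals of 906 with PC-3 medium and 391 with MDA-PCa2b medium (2.32-fold higher), and Lpin3, a phosphatidate phosphatase gene, had 156 with PC-3 medium and 42.3, below the floor, with MDA-PCa2b medium (at least 2.76-fold higher). Fatty acid oxidation genes and PPAR targets had a median of 0.06 over 16 genes, against -0.04 over all measured genes. Of the 16, 7 were below 0 (43.8%, against 55.9%), and 1 was at least 2-fold higher (6.25%, against 1.90%). The member at least 2-fold different was Angptl4, a gene of a lipoprotein lipase inhibitor, at 5093 with PC-3 medium and 1161 with MDA-PCa2b medium. Further fatty acid synthesis genes had a median of -0.06 over 14 genes, 7 on either side of 0, with the largest ratios at -0.66 for Acsl3, a fatty acid activating gene, and -0.57 for Hacd1, a dehydratase gene of elongation.

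**Figure D4:**
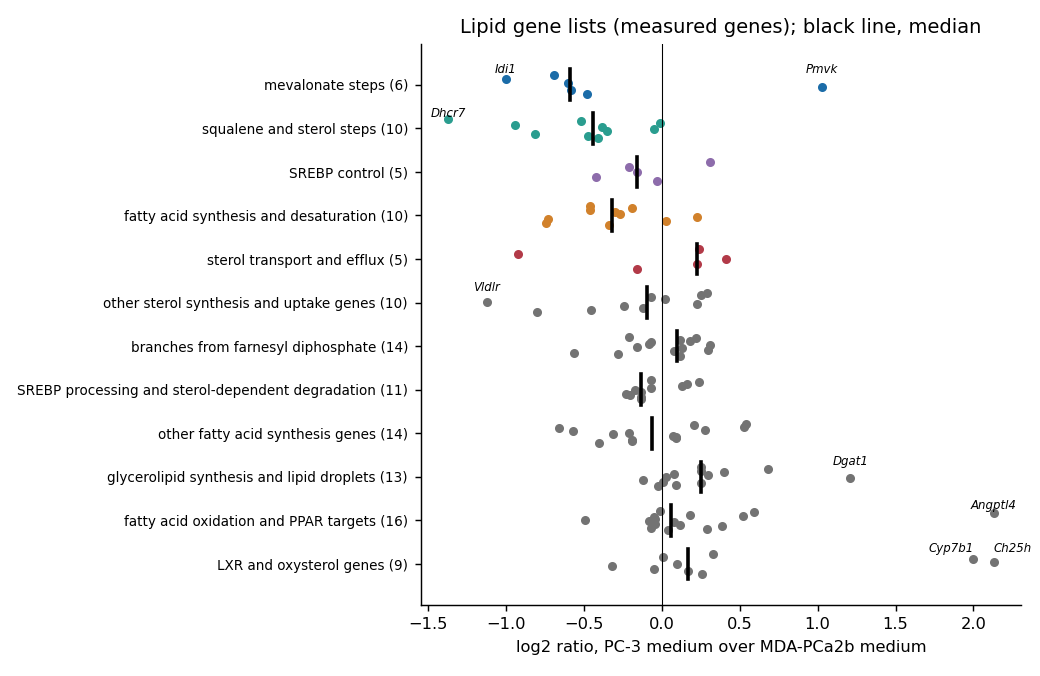
Log2 ratios (horizontal axis, PC-3 medium over MDA-PCa2b medium) of the measured genes of each list, with the number of genes in brackets; the 5 coloured rows are the set described here, grey rows are related lists, black lines are medians, and genes at least 2-fold different are named. The medians of the mevalonate and sterol rows lie at -0.59 and -0.44, and Ch25h lies at 2.13.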

How the data were processed

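Total RNA (5 µg, TRIzol and RNeasy per the labels' protocols) of 2 samples was measured on 2 arrays. The deposited values are probe set signals, intensity on a linear scale, for which the submitters' processing notes name GCOS 1.4 and MAS5; scaling target, background settings and detection calls are not given in the sources used here. Groups came from the source description; the PC-3 sample's title also carries the other line's prefix. Of 45101 probe sets 64 were controls. Probe sets mapped to 1 gene by the platform annotation were used (84 for the genes described).

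The floor was each array's 50th percentile, and lower signals were raised to it before log2 was taken. The brightest probe set stood for its gene; "measured" means above the floor on both arrays, and counts and medians cover measured genes alone. Members and lists were chosen with earlier results of these data known. All genes of the set were named. Of related lists, genes at least 2-fold different were named, at most the 4 largest, otherwise the 2 largest ratios; other probe sets were given where they differ in sign or by over 0.5. The number of arrays limits the precision. Values were computed with Python 3.11.15, numpy 2.4.6 and pandas 2.3.3, in scripts tested on simulated data.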

Additional observations from a re-analysis of the deposited data

How the results depend on the processing

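Ratios were recomputed with quantile normalisation, all genes centred on a median of 0, log2(signal + 16) in place of the floor, the floor moved to the 25th or the 75th percentile, probe sets averaged, and without probe sets that can match several transcripts (with _a_at ones kept as an alternative chosen after seeing the data). Over these 8 alternatives the median of the set stayed between -0.37 and -0.27 and that of the mevalonate, squalene and sterol steps between -0.50 and -0.42. Other medians moved by over 1.5 times under at least 1 alternative: SREBP control from -0.18 to -0.03, glycerolipid and lipid droplet genes from 0.09 to 0.29, LXR and oxysterol genes from 0.10 to 0.26, other sterol genes from -0.18 to -0.06, other fatty acid synthesis genes from -0.11 to -0.02, and fatty acid oxidation genes from 0.04 to 0.11. None of these changed sign. The count at least 2-fold lower was 2, but 1 with the floor at the 75th percentile, with log2(signal + 16), with genes centred or with probe sets averaged, 9 at a threshold of 1.5-fold and 0 at 3-fold. The count at least 2-fold higher was 1 (Pmvk), but 0 with log2(signal + 16), without _s_at, _x_at and _a_at probe sets, which leaves no probe set for Pmvk, and at 3-fold. Averaging probe sets gave Srebf2 a log2 ratio of 0.04 in place of -0.42. Of 279 recomputed member values 272 moved by less than the SD of 0.24 between probe sets. No paired analysis was possible because each group has 1 array. Signals close to the floor limit the ratio of Abcg1.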

Other observations

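In several related lists other probe sets of a gene gave larger log2 ratios than the brightest one. Fads3, a gene related to the fatty acid desaturases, had a log2 ratio of 0.54 by its brightest probe set and up to 1.08 by another, opposite in sign to Fads1 and Fads2. Acsl4, which activates polyunsaturated fatty acids, gave 0.53 and up to 1.06, whereas its relative Acsl3 gave -0.66 and as low as -0.87. Npc2, the gene of the soluble partner of Npc1 in late endosomes, had signals of 9769 with PC-3 medium and 9638 with MDA-PCa2b medium by its brightest probe set (0.02), and up to 0.80 by another. Fads3, Acsl4 and Npc2 were picked with their values in view.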
